A study of Mus musculus with 6 samples.

Results

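The repressor arm of the circadian clock was followed in mouse pancreatic islets that carried or lacked the farnesoid X receptor FXR (gene *Nr1h4*), a nuclear receptor for bile acids. It was taken as 9 of the 19342 genes counted, picked by name: *Per1*, *Per2*, *Per3*, *Cry2*, *Nr1d1*, *Nr1d2*, *Ciart*, *Bhlhe40* and *Bhlhe41*. These genes were chosen with the difference between knockout and wild-type islets already known, so that difference is given as a description of the libraries, with no test. Poly(A) RNA was sequenced from islets of 3 wild-type (WT, FXR+/+) and 3 knockout (KO, FXR-/-) C57Bl/6 mice or groups of mice aged 3 months, with 1 female library (F1) and 2 male libraries (M1 and M2) in each genotype. No treatment other than isolation of the islets from the pancreas was labelled, and no tissue-specific driver of the knockout is named in the sources used here. Whether a library held islets of a single mouse or of several, and the hour at which islets were collected, are not given in the sources used here, so every p-value measures the spread between these libraries.

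In the molecular clock, the activators ARNTL and CLOCK (or NPAS2) bind E-boxes and switch on the genes of their own repressors. PER and CRY proteins form a complex that blocks the activators, CIART and the BHLHE40 and BHLHE41 proteins (also known as DEC1 and DEC2) dampen them as well, and the nuclear receptors REV-ERBα (*Nr1d1*) and REV-ERBβ (*Nr1d2*) repress *Arntl*. The repressor transcripts therefore crest at roughly the opposite phase to *Arntl* in many tissues, and the islet clock is known to take part in insulin secretion. Several of them, *Per1* above all, are also rapidly induced by glucocorticoid and cyclic AMP signals.

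RefSeq promoter sequences (GRCm38.p6) matched 7 of the 9 genes, with 8 start sites in all, since *Per1* has 2. The 250 bases before each start were searched on both strands for the E-box CACGTG, the related E′-box CACGTT, the D-box TTATGNAA (the site of the PAR bZIP factors DBP, TEF and HLF), the cyclic AMP element TGACGTCA, the REV-ERB and ROR core TAGGTCA, and an inverted repeat of AGGTCA spaced by 1 base, a form of FXR site. The following 5 are shown because their genes carry the patterns described next, with matches in capitals and bases inside annotated exons of the gene left out. They are *Ciart* (chr3:95882252-95882478, minus strand), *Per3* (chr4:151044666-151044915, minus strand), *Nr1d2* (chr14:18239128-18239356, minus strand), *Per1* at its first start (chr11:69098699-69098947, plus strand) and *Nr1d1* (chr11:98775378-98775627, minus strand).
Ciart: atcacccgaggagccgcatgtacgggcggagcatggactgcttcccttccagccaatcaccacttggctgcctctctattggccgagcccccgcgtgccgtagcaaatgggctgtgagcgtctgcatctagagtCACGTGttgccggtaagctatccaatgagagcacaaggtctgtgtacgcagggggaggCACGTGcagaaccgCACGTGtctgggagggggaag
Per3: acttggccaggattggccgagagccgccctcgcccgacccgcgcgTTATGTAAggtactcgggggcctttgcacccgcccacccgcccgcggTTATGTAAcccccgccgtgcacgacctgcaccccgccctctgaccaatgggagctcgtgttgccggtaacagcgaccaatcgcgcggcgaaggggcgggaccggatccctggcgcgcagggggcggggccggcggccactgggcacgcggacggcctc
Nr1d2: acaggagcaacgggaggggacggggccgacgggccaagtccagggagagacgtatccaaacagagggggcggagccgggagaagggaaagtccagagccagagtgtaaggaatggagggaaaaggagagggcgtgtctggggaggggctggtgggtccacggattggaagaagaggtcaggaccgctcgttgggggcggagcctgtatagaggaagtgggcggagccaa
Per1: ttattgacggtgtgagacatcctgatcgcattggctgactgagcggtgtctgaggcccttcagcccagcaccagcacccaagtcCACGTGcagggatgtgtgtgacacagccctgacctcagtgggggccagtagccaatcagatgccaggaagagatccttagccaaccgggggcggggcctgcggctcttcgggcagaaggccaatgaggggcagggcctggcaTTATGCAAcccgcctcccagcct
Nr1d1: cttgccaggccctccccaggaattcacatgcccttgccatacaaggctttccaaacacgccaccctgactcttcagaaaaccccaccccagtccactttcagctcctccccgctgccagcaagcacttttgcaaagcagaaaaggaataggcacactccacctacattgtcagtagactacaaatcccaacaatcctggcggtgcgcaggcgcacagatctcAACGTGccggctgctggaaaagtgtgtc
*Ciart* held 3 E-boxes, at 116, 58 and 44 bases before its start. At least 3 E-boxes occurred in 0.0609% of the 32851 promoters in the table and at least 1 in 6.02%. *Per3* held 2 D-boxes, at 205 and 158 bases before its start, against 0.128% of promoters with at least 2 and 3.07% with at least 1. *Per1* held 1 E-box and 1 D-box at its first start and none of the 6 motifs at its second. *Bhlhe41* also held an E-box, and *Nr1d1* and *Cry2* an E′-box, a motif of 3.85% of promoters. *Nr1d2* held none of the 6 motifs in this window. The cyclic AMP element (1.55% of promoters), the TAGGTCA core (2.23%) and the inverted repeat (0.00609%) were found before none of the 8 member starts. The shares for at least 3 E-boxes and at least 2 D-boxes were taken at the counts found in *Ciart* and *Per3*. They describe those matches and test nothing. These matches are letters in a window and were not tested as binding sites.

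The libraries held 20629306 to 30139235 counts each, and all 9 repressors were among the 14619 genes that passed the filter on low counts. *Nr1h4* itself was counted in every library, at 14.2, 13.6 and 12.2 CPM (counts per 1e6 counts of the library, scaled by TMM) in the WT F1, M1 and M2 libraries and at 5.67, 7.63 and 5.81 in the KO ones. Its log2 fold change was -1.07 ± 0.16 (SE), with an edgeR adjusted p of 0.217, or 0.0441 when same-numbered libraries were paired. The 9 β-cell markers used to check the islet label all passed the filter and summed to between 186872 and 271733 CPM. Acinar RNA was also present, at 4.97% to 14.4% of all counts, and was highest in the M1 library of each genotype. In bulk islets, fewer cells of a type and less RNA per cell cannot be told apart.

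To compare the repressors with each other, counts were divided by the merged exon length of each gene. In WT islets *Nr1d1* had the highest mean, at 29.2 ± 19.8 CPM per kb (SD, n = 3), ahead of *Nr1d2* at 24.6 ± 7.52 and *Cry2* at 24.6 ± 1.74. *Per1* (16.2 ± 5.28), *Bhlhe41* (13.8 ± 2.99) and *Per2* (9.60 ± 4.58) were intermediate. *Bhlhe40* (5.95 ± 3.13), *Per3* (4.91 ± 2.50) and *Ciart* (2.92 ± 1.74 CPM per kb) were lowest. Neighbours in this order overlapped between libraries, except *Cry2* and *Per1*, whose WT libraries did not overlap. *Nr1d1* stood at the 92.6th percentile of the 14090 tested genes with a length and *Ciart* at the 41.7th, so *Ciart* was the only repressor whose WT mean lay below the median gene (4.04 CPM per kb). In KO islets *Cry2* came first (24.6 ± 12.3 CPM per kb), and *Per3* (1.49 ± 0.44) and *Ciart* (1.34 ± 0.46) were still the lowest.

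**Figure D1:**
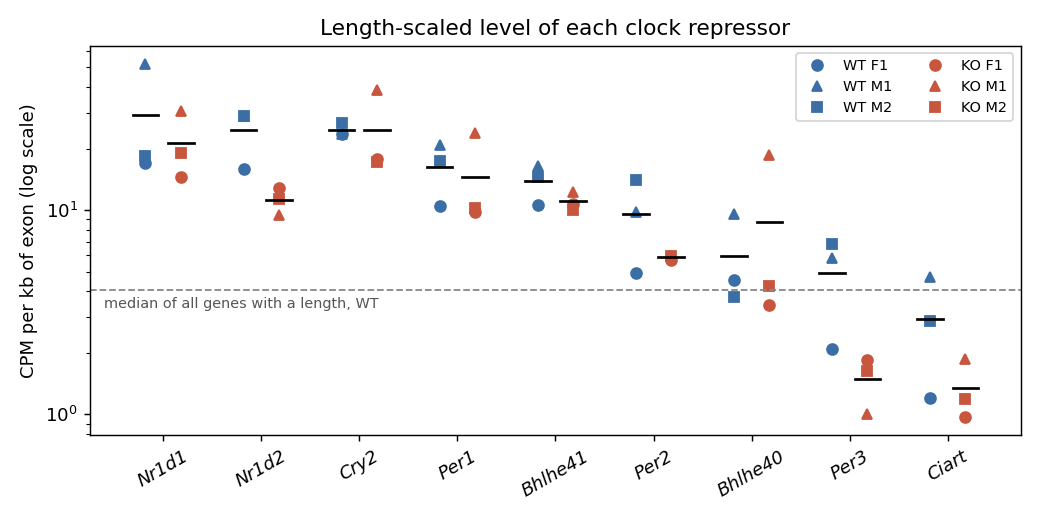
Length-scaled level (CPM per kb of merged exon, log axis) of each repressor, ordered by the WT mean, with 1 point per library (circle F1, triangle M1, square M2), black bars for genotype means and a dashed line for the median tested gene in WT. *Nr1d1*, *Nr1d2* and *Cry2* led at 24.6 to 29.2 CPM per kb in WT, and *Per3* lay above the dashed line in the WT males and below it in the other libraries.

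KO means were lower than WT for the period genes, both REV-ERBs, *Ciart* and *Bhlhe41*, were near equality for *Cry2*, and were higher for *Bhlhe40*. The fitted log2 fold changes ran from -1.59 (*Per3*) to 0.40 (*Bhlhe40*), below 0 for 8 of the 9, with a median of -0.41 against 0.01 over all tested genes. By edgeR no repressor and no gene at all passed an adjusted p of 0.05 (0% of genes), while at an unadjusted p under 0.05 there were 5 repressors and 10.3% of genes (all 5 lower in KO, as were 4.15% of genes). DESeq2 called none of the 9, against 1.21% of genes. The pairing of same-numbered libraries called none of the 9 and 0.157% of genes. The genotypes did not overlap for *Per3* and *Nr1d2*, both lower in KO, where 7.37% of all genes were lower without overlap, and for 5 repressors without WT F1 (11.2% of genes) or without KO M1 (10.2%). As the members were selected on this contrast, these counts describe the selection and nothing is read from them.

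Among the period genes, *Per3* was the most different. Its level was 19.99, 55.8 and 65.6 CPM in WT F1, M1 and M2, and 17.8, 9.62 and 15.6 CPM in KO F1, M1 and M2. Both WT males were high and the other 4 libraries were low, with the WT female only a little above the KO female. The log2 fold change was -1.59 ± 0.42 (SE), and in the males the WT mean was 4.81 times the KO mean, against 1.12 times between the females. *Per2*, which encodes a core subunit of the repressor complex, was at 28.7, 57.5 and 82.3 CPM in WT and at 33.5, 35.0 and 35.0 CPM in KO. The KO libraries lay close together (34.5 ± 0.87 CPM, SD, n = 3), and the WT libraries spread from below them to above them. Its log2 fold change was -0.60 ± 0.25, with a ratio of WT to KO of 2.00 in males and 0.86 in females. *Per1* was at 58.8, 117 and 98.2 CPM in WT and at 54.8, 134 and 57.4 CPM in KO. Its genotypes overlapped widely, its highest library was KO M1, and its log2 fold change of -0.15 ± 0.27 was smaller than its SE and became 0.14 without KO M2. *Cry2*, the partner of PER proteins among these genes, was at 149, 149 and 168 CPM in WT and at 112, 245 and 109 CPM in KO. The WT libraries fell between the KO ones, and the log2 fold change was -0.03 ± 0.28, or -0.49 without KO M1.

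Of the REV-ERB genes, *Nr1d2* showed the same split as *Per3*. It was at 86.1, 157 and 156 CPM in WT and at 69.4, 51.1 and 60.9 CPM in KO. The WT males were 2.79 times the KO males on average, whereas the WT female was 1.24 times the KO female and lay nearer to the KO libraries than to the WT males. Its log2 fold change was -1.10 ± 0.23. *Nr1d1* was at 52.3, 160 and 56.6 CPM in WT and at 44.4, 94.2 and 58.8 CPM in KO. Here the M1 library was the highest of each genotype and the other 4 libraries lay together, and the log2 fold change was -0.41 ± 0.35. Without WT M1 that value became 0.14, so its sign rested on that library.

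*Ciart*, which encodes a repressor of the CLOCK and ARNTL pair, was the scarcest, with 54 to 214 counts per library. It was at 2.73, 10.6 and 6.44 CPM in WT and at 2.19, 4.21 and 2.69 CPM in KO. WT males exceeded KO males 2.47 times on average, the females differed 1.25 times, and the log2 fold change was -1.01 ± 0.31. *Bhlhe41* varied least of the 9, with 1.64 times between its highest and lowest library, at 71.0, 110 and 97.7 CPM in WT and 72.1, 82.5 and 67.3 CPM in KO. Both WT males lay above every KO library and the WT female among them, giving a log2 fold change of -0.31 ± 0.13. *Bhlhe40* was at 21.4, 44.9 and 17.7 CPM in WT and at 16.1, 87.7 and 19.9 CPM in KO. Only the M1 libraries stood high, and the log2 fold change of 0.40 ± 0.57 was below its SE and turned to -0.55 without KO M1.

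**Figure D2:**
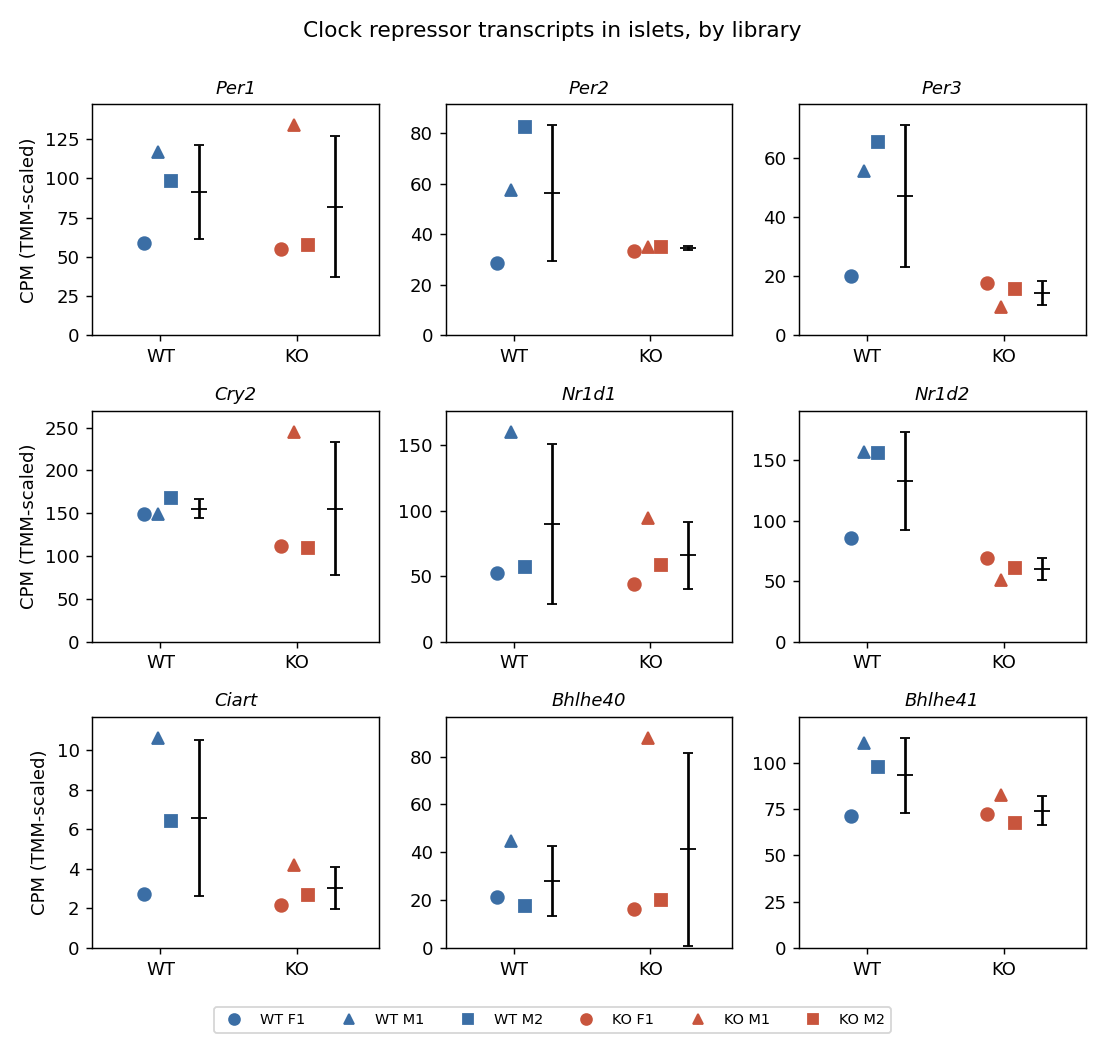
CPM (TMM-scaled, linear axes from 0) of the 9 repressors in each library, WT in blue and KO in red, with the genotype mean and SD (n = 3) in black beside the points. For *Per2*, *Per3*, *Nr1d2*, *Ciart* and *Bhlhe41* both WT males (triangle, square) lie above both KO males, and the WT female (circle) lies at or near the KO libraries; for *Nr1d1* and *Bhlhe40* the triangles (M1) lie highest in both genotypes.

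In 8 of the 9 genes the WT female was the lowest WT library, as in 28.7% of all genes, and for 6 (*Per1*, *Cry2*, *Nr1d1*, *Ciart*, *Bhlhe40* and *Bhlhe41*) it fell within the range of the KO libraries, as in 46.3% of all genes. Among the males alone, 5 genes (*Per2*, *Per3*, *Nr1d2*, *Ciart* and *Bhlhe41*) were lower in both KO than in both WT libraries, against 21.4% of all genes. Whether the genotype effect differed between the sexes was examined by the interaction term. The genes were picked with earlier results of these same libraries known, so its p-values describe the libraries and are no independent support. The interaction term rests on 1 female library in each genotype, which the fit matches exactly. Its SEs and p-values therefore hold no spread between females, and within a gene only the spread between males of the same genotype. The interaction (KO over WT in females minus the same in males, log2) was 2.09 ± 0.40 (SE) for *Per3*, 1.17 ± 0.21 for *Nr1d2* and 1.22 ± 0.31 for *Per2*. By edgeR's quasi-likelihood test the unadjusted p was 0.00178, 0.00107 and 0.00668, and the adjusted p was 1.00 for each of the 9. No gene of the 14619 was called by edgeR (0%), and 3 of the 9 repressors and 1.48% of all genes had an unadjusted p under 0.05. DESeq2 called 3 genes in all, of which 2 were *Per3* (adjusted p = 0.0168) and *Nr1d2* (adjusted p = 0.0275), while *Per2* did not pass (adjusted p = 0.973). The call for these 2 genes thus differed between the tools.

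**Figure D3:**
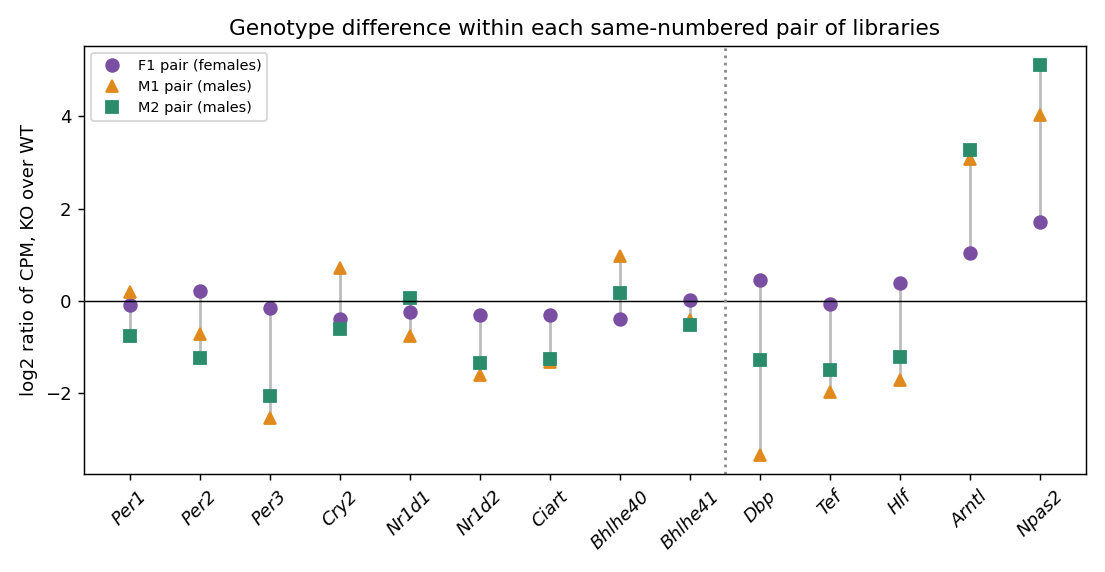
Log2 ratio of CPM, KO over WT, within the female pair F1 (circle) and the male pairs M1 (triangle) and M2 (square), for the 9 repressors and, right of the dotted line, for *Dbp*, *Tef*, *Hlf*, *Arntl* and *Npas2*. The male pairs of *Per3* lie at -2.54 and -2.07 and its female pair at -0.17; the ratios of *Arntl* lie above 0 in all pairs, at 3.08, 3.27 and 1.05.

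Sex itself was not a called effect for any repressor. Female over male log2 fold changes were all below 0, from -1.15 ± 0.35 (SE) for *Ciart* to -0.24 ± 0.24 for *Nr1d2*. The lowest adjusted p was 0.552 (*Ciart*, edgeR), and 3 of the 9 had an unadjusted p under 0.05, against 7.48% of all genes. edgeR called 8 genes for sex in all (0.0547%), and DESeq2 called 83 genes and none of the 9.

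A second pattern among the repressors followed the replicate number. F1 is the only female number, so a test of the numbers also holds the difference between the sexes. That the numbers pair libraries was taken from these same data and not from the labels. The p-values for replicate number therefore describe these libraries and are no independent support for a pairing. In the fit with genotype and replicate number, *Nr1d1* (adjusted p = 0.0220) and *Bhlhe40* (adjusted p = 0.0271) differed between F1, M1 and M2 by edgeR, where 0.711% of all genes were called. *Nr1d1* was 1.37 higher in M1 than in F1 on the log2 scale and 0.27 higher in M2 than in F1, and *Bhlhe40* was 1.77 higher in M1 and 0.02 lower in M2 (-0.02). M1 over F1 was 3.06 in WT and 2.12 in KO for *Nr1d1*, and 2.10 and 5.44 for *Bhlhe40*. *Per1* (1.15 higher in M1 than in F1, adjusted p = 0.0703) and *Ciart* (1.48 higher, adjusted p = 0.103) did not pass by edgeR. Both were called by DESeq2 (adjusted p = 4.63e-06 and 0.0430), which called 4 of the 9 and 288 genes in all. Under edgeR's robust prior *Nr1d1* alone passed (adjusted p = 0.0497), and summed exon counts added *Per1* (adjusted p = 0.00603). *Per3*, *Nr1d2*, *Per2*, *Cry2* and *Bhlhe41* had adjusted p from 0.360 to 0.792. M1 was the highest library of both genotypes for 5 repressors (*Per1*, *Nr1d1*, *Ciart*, *Bhlhe40* and *Bhlhe41*) and for 17% of all genes.

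The M1 libraries were also compared in 12 genes known to respond to glucocorticoid or cyclic AMP signals. Only *Sik1*, a kinase induced by cyclic AMP, was called for replicate number (adjusted p = 0.0271, edgeR, with 0.711% of all genes called), at 19.1, 44.0 and 16.2 CPM in WT and 12.3, 62.2 and 21.4 CPM in KO. The summed level of the 12 was 3392 CPM in WT M1 and 4066 in KO M1, against 384 (WT M2) to 2116 (WT F1) in the other 4 libraries. Most of that sum came from *Fos*, *Egr1*, *Dusp1* and *Nr4a1* (1216, 968, 415 and 365 CPM in WT M1), so it says little of the other genes. The stress-induced *Atf3* spanned 0.73 CPM in WT M2 to 262 CPM in KO M1, and neither it (adjusted p = 0.294) nor *Fos* (adjusted p = 0.567) passed by edgeR. *Fkbp5*, a glucocorticoid target, was at 150, 98.03 and 127 CPM in WT and 81.2, 104 and 66.1 CPM in KO, highest in M1 of KO but not of WT. *Tsc22d3* was highest in M1 of neither genotype. *Sgk1* was highest in M1 of both, at 30.6, 49.8 and 26.7 CPM in WT and 23.5, 89.6 and 36.2 CPM in KO (replicate number, edgeR adjusted p = 0.0677). The 22 acinar markers summed to 141911 CPM in WT M1 and 161860 in KO M1, against 47235 to 94957 in the others, and 2 of the 22 were called for replicate number. The part of these transcripts in the levels of the repressors was not tested. With a term for acinar RNA in the fit, the log2 fold change between genotypes was -0.90 for *Nr1d1* and -0.51 for *Bhlhe40*.

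**Figure D4:**
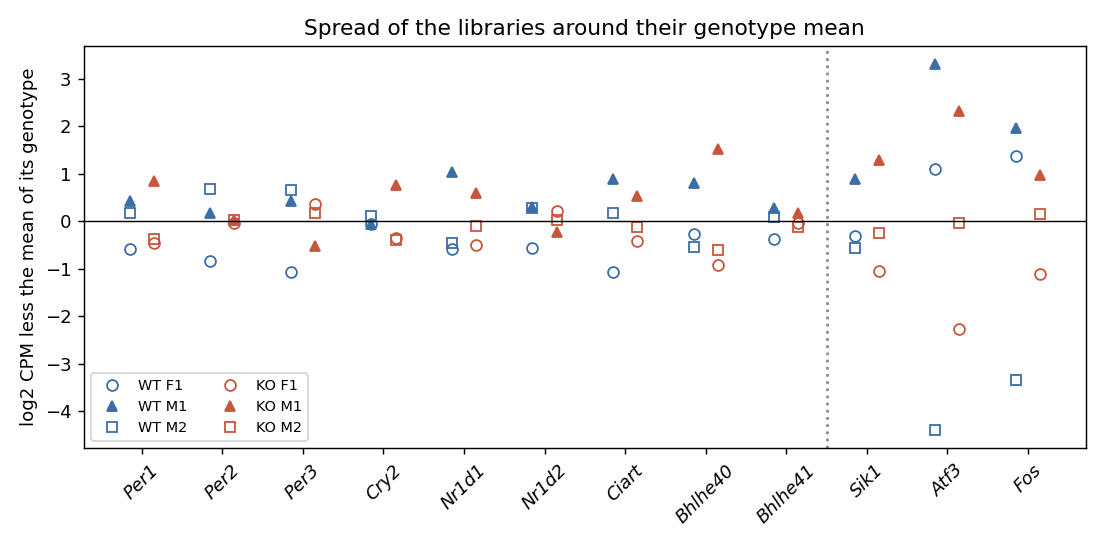
Log2 CPM of each library less the mean of its genotype, for the 9 repressors and, right of the dotted line, for *Sik1*, *Atf3* and *Fos*, with M1 libraries as filled triangles. The filled triangles lie highest in both genotypes for *Per1*, *Nr1d1*, *Ciart*, *Bhlhe40*, *Bhlhe41* and for *Sik1*, *Atf3* and *Fos*, while for *Per3* and *Nr1d2* KO M1 lies lowest of the KO libraries. Not all 12 response genes are drawn. Among those left out, *Tsc22d3*, *Fkbp5*, *Crem* and *Zbtb16* were not highest in M1 of both genotypes.

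Marker lists of other cells were set beside the genotype differences. By edgeR no gene at all was called between genotypes (0%), and so none of these markers. DESeq2 called 1 endothelial and 1 ductal marker, against 1.21% of all genes, and none in the acinar, stellate and pericyte, macrophage or lymphoid lists. At an unadjusted p under 0.05 by edgeR, 4 of 6 endothelial, 4 of 8 macrophage and 3 of 4 tested ductal markers were higher in KO. In the lymphoid list 1 was lower. Over all genes the share was 10.3% for both directions together and 4.15% for genes lower in KO. Log2 fold changes were above 0 for 20 of 22 acinar, 6 of 6 endothelial, 7 of 7 stellate and pericyte, 6 of 8 macrophage and 3 of 4 tested ductal markers, against 51.6% of all genes. Hormone cell markers were also mostly above 0, at 6 of 9 for β-cells, 4 of 5 for α-cells, 3 of 3 for δ-cells and 2 of 2 for pancreatic polypeptide cells. DESeq2 called 1 of these, a β-cell marker. All 4 lymphoid markers that could be tested, of 7, were below 0, with a median of -0.82. The endothelial markers summed to 437 to 519 CPM in WT and 538 to 867 CPM in KO. The acinar sum ran from 47235 to 141911 CPM in WT and from 67209 to 161860 in KO, the stellate and pericyte sum from 155 to 265 in WT and from 233 to 303 in KO, the macrophage sum from 111 to 150 in WT and from 148 to 175 in KO, and the lymphoid sum from 20.4 to 34.7 in WT and from 14.9 to 25.1 in KO. The ductal sum ran from 217 to 249 CPM in WT and from 218 to 244 in KO. Only the endothelial sums did not overlap between the genotypes. The part of these cells in the repressor levels was not tested.

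The other clock genes were taken as 36 genes in 5 lists, drawn up with earlier results of these libraries known, of which 35 were tested and *Rorb* was too low. Their genotype p-values, here and below, come after that choice. They describe these libraries and are no independent support for the differences of the repressors. By edgeR none was called between genotypes, as was no gene at all (0%). At an unadjusted p under 0.05 by edgeR there were 9 (6 higher and 3 lower in KO), against 10.3% of all genes. DESeq2 called 4, against 1.21% of all genes. Their median log2 fold change was 0.03, with 19 above 0 and 16 below.

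The 6 genes of the *Arntl* phase were all higher in KO by point estimate, with a median log2 fold change of 1.47. *Arntl*, the activator that REV-ERBs repress, was at 10.7, 3.57 and 2.30 CPM in WT and at 22.1, 30.2 and 22.2 CPM in KO. Its log2 fold change was 2.43 ± 0.44 (SE), with an adjusted p of 0.225 by edgeR and 0.00720 by DESeq2. *Npas2*, a paralogue of *Clock*, was at 1.49, 0.50 and 0.19 CPM in WT and at 4.90, 8.15 and 6.52 CPM in KO (log2 fold change 3.31 ± 0.57, adjusted p = 0.225 by edgeR and 1.01e-06 by DESeq2). For both, every KO library lay above every WT library, and the WT female lay closest to KO. *Nfil3*, which encodes a repressor at D-boxes, was 2.29 ± 0.72 higher on the log2 scale (adjusted p = 0.430) and *Cry1* 0.40 ± 0.27 (adjusted p = 0.583), both by edgeR. *Clock* differed by 0.06 ± 0.10 (adjusted p = 0.827). Within a library, where scaling cancels, *Per3* counts were 1.87, 15.6 and 28.5 times those of *Arntl* in WT F1, M1 and M2, and 0.81, 0.32 and 0.70 times in KO. *Nr1d2* counts were 8.05, 43.9 and 67.9 times those of *Arntl* in WT and 3.14, 1.69 and 2.74 times in KO. On both ratios the WT female lay between the WT males and the KO libraries. The genes of each ratio were picked with their genotype difference known, so the ratios describe the libraries and test nothing.

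The 3 PAR bZIP genes, outputs of the clock that act through D-boxes, were lower in KO by point estimate. *Dbp* was at 15.002, 98.6 and 57.0 CPM in WT and 20.3, 9.68 and 23.4 CPM in KO (log2 fold change -1.40 ± 0.60, edgeR adjusted p = 0.480). *Tef* was at 69.3, 151 and 165 CPM in WT and 65.7, 38.4 and 58.3 CPM in KO (-1.18 ± 0.33, adjusted p = 0.400), and *Hlf* at 8.44, 20.02 and 18.6 CPM in WT and 10.9, 6.10 and 7.95 CPM in KO (-0.86 ± 0.35, adjusted p = 0.477). The WT female was again near the KO libraries and the WT males were high. The 11 kinases, ubiquitin ligase subunits and other partners of the period complex ranged only from -0.21 to 0.38, with 5 above 0 and 6 below. The 5 tested partners of RORs and REV-ERBs ranged from -0.23 to 0.20. Of 10 other cycling transcripts, 5 were above 0 and 5 below, and DESeq2 called *Ppp1r3c*, a glycogen-targeting phosphatase subunit (log2 fold change 1.61 ± 0.37 by edgeR, adjusted p = 0.00215 by DESeq2), and *Coq10b*, which acts in coenzyme Q function (-0.81 ± 0.16 by edgeR, adjusted p = 0.00332 by DESeq2). The edgeR adjusted p was 0.309 for *Ppp1r3c* and 0.246 for *Coq10b*.

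Counts per exon, a second table that holds a part of the gene counts, were compared to see whether a member's difference sat in a single exon. The last exon, which ends in the 3′ untranslated region, carried 55.8% to 95.5% of the exon counts in 8 of the genes, and an exon other than the last was the largest in *Nr1d1* (36.5%). For *Per3* the KO over WT log2 ratio of mean CPM was -1.79 in the last exon and -1.69 in its other exons together. For *Nr1d2* these values were -1.15 and -1.02, and for *Per2* -0.78 and -0.44. *Ciart* had 342 exon counts over all 6 libraries, too few to compare exon by exon (-1.16 and -0.82). For *Per1* they were -0.13 and -0.44, and for *Cry2* -0.03 and 0.38. Among exons with at least 100 counts in all, 3 of 3 in *Per3*, 4 of 4 in *Nr1d2* and 2 of 2 in *Per2* were lower in KO. So were 4 of 4 in *Per1* and *Nr1d1*, 3 of 3 in *Bhlhe41* and 1 of 1 in *Ciart*, but only 1 of 4 in *Cry2* and 0 of 2 in *Bhlhe40*. Exons of a gene come from the same libraries, so these counts are no separate support for its difference.

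Strand was not stated for the counting, so reads of overlapping genes cannot be separated. In GENCODE vM21 (GRCm38) the *Nr1d1* gene (chr11:98767932-98775333, minus strand) shares 263 exonic bases with the opposite-strand *Thra*. Its 7 exons outside *Thra* gave 15.2, 58.2 and 18.2 CPM in WT and 13.5, 33.7 and 19.3 CPM in KO, so M1 was the highest there too. *Cry2* shares 295 exonic bases with D930015M05Rik, *Bhlhe40* 118 with 0610040F04Rik and *Bhlhe41* 1280 with Gm43909, all on the opposite strand, and their levels are uncertain to that extent. *Per3* (chr4:151003652-151044665) and *Ciart* (chr3:95878503-95882251) lie inside *Camta1* and C920021L13Rik, with no exonic base in common. *Nr1d2* (chr14:18204054-18239127), *Per1* (chr11:69095217-69109960) and *Per2* (chr1:91415982-91459324) overlap no other annotated gene.

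Genes with the most similar pattern were taken from the 10866 other genes with a mean of at least 5 CPM, by Pearson's r over the 6 libraries with the mean standardised log2 CPM of the 9 repressors. These values are descriptions of libraries that share depth and RNA composition. The 5 most alike were *Syne2* (r = 0.99), *Khsrp* (0.98), *Sptan1* (0.97), *Prr3* (0.97) and *Ggt7* (0.97), and among the most opposite were *Rprd1b* (-0.99), *Cxxc5* (-0.98), *Mmp24* (-0.98) and *St6galnac5* (-0.98). Their range was narrow beside that of the repressors, for example 52.7 to 67.0 CPM for *Syne2* and 60.9 to 70.6 CPM for *Rprd1b*. After each genotype's mean was subtracted, *Fuz* (0.997), *Tmc4* (0.99), *Khsrp* (0.99), *Mks1* (0.99) and *Pqlc2* (0.99) were most alike, and *Marcks* (-0.997), *Bbs4* (-0.99), *Klhdc9* (-0.99) and *Gng10* (-0.99) were among the most opposite. Of the other clock genes, 31 were high enough to be searched, and none was among these. Within the repressors, *Ciart* (r = 0.97) and *Bhlhe41* (0.96) followed the mean of the other 8 most closely and *Bhlhe40* (0.41) and *Cry2* (0.47) least.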

How the data were processed

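Poly(A) RNA of 6 islet libraries was sequenced from randomly primed cDNA. The authors deposited whole-number read counts per gene and per exon for each library. HISAT is named as the aligner in the submitters' processing notes, and its version, the counting tool, genome build, annotation and use of strand are not given in the sources used here. Library totals ran from 20629306 to 30139235 counts, no row lacked a gene, and no 2 libraries agreed within sampling noise (chi-square per degree of freedom of at least 16.0). The authors' own fold change and p-value tables were not used.

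The 9 members and all gene lists were chosen with earlier results of these data known. Counts were filtered with edgeR's filterByExpr (minimum count 10, minimum total 15), scaled by TMM and fitted with edgeR 4.0.16 (R 4.3.3) by the quasi-likelihood test with terms for sex and genotype, p-values being adjusted by Benjamini-Hochberg over all 14619 genes tested. An SE is the absolute log2 fold change divided by the square root of F. The interaction of genotype and sex was tested in a fit of its own, and replicate number in a fit with genotype. Libraries with the same number deviated together from their genotype mean (r = 0.36 for F1, 0.35 for M1 and 0.31 for M2 over genes), so the numbers were taken to pair libraries, from the data and not from the labels. DESeq2 1.42.0 and other scalings, filters and left-out libraries were tried as alternatives, and scripts were tested on simulated data.

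Genes were named by rule: the 9 members, *Nr1h4*, called genes and the best-known members of the other clock lists, and the 5 genes most like and most unlike the members. A few genes that the rule selects are not reported here. Members were matched by symbol, levels were scaled by merged GENCODE vM21 exon length, and promoters came from RefSeq (GRCm38.p6).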

Additional observations from a re-analysis of the deposited data

Results flagged for a closer look

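For 2 repressors the difference between genotypes had opposite signs in the female pair and in the males. For *Bhlhe41* the female pair was almost equal (log2 ratio of KO over WT 0.02), so its sign there carries little. *Per2* was 33.5 CPM in the KO female against 28.7 in the WT female, while both KO males (35.0 CPM each) lay below both WT males (57.5 and 82.3 CPM). The interaction of genotype and sex was 1.22 ± 0.31 on the log2 scale (SE), with an adjusted p of 1.00 by edgeR and 0.973 by DESeq2. *Bhlhe41* was 72.1 CPM in the KO female and 71.0 CPM in the WT female, against 82.5 and 67.3 CPM in the KO males and 110 and 97.7 CPM in the WT males, with an interaction of 0.50 ± 0.23 (adjusted p of 1.00 by both tools). Each female value is a single library, and the differences between the female libraries have no replicate.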

How the results depend on the processing

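The log2 fold changes of *Per2*, *Per3*, *Nr1d2*, *Ciart* and *Bhlhe41* were below 0 under all 21 alternatives tried, at -1.001 to -0.33, -2.26 to -1.13, -1.48 to -0.84, -1.34 to -0.69 and -0.47 to -0.18. *Cry2* turned to 0.00158 without a term for sex, 0.16 in males alone and 0.00567 with summed exon counts, and ran from -0.49 to 0.20 when single libraries were left out. *Bhlhe40* turned to -0.51 with the acinar term, ran from -0.55 to 0.78 with single libraries left out (below 0 without WT M2 or KO M1), and was -0.13 without both M1 libraries, an alternative chosen after seeing the data. *Nr1d1* ran from -0.73 to 0.14 (above 0 without WT M1) and *Per1* from -0.56 to 0.14 (above 0 without KO M2). The causes were not tested. Non-overlapping repressors, all lower in KO, numbered 5 in males alone (21.4% of all genes) and without both M1 libraries (21.5%), and 2 to 5 with single libraries left out (5 without WT F1 or KO M1; 10.1% to 17.5% of genes). The acinar term gave 1 repressor called for genotype (*Nr1d1*; 0.0342% of genes called), and leaving out both M1 libraries 1 (*Cry2*, -0.52; 1.59% of genes), as a description. Other clock genes called were 4 by DESeq2 (1.21% of all genes) and 3 without both M1 libraries (1.59% of genes), namely *Arntl*, *Npas2* and *Coq10b*. The calls for the interaction differed between the tools, as given above. Repressors called for replicate number were 4 by DESeq2, which called 288 genes in all. They were 1 under the robust prior and 3 with summed exon counts, for which the share of all genes is not given here. The replicate block gave a median log2 fold change of -0.32 and changed no call of a repressor or other clock gene. When a female library was left out, the sex term fitted the other female exactly. *Ciart*, with 54 to 214 counts, is the member most limited by depth.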
